A study of Mus musculus with 2 samples.

Results

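The 10 genes described here are regulators and surface proteins of blood stem cells together with the chemokine pair that guides these cells to their niche: Mecom, Hlf, Meis1, Runx1, Gata2, Cd34, Flt3, Procr, Cxcl12 and Cxcr4. They were chosen by name and matched by symbol to the Ensembl identifiers of the mm10 tables, where all 10 were found among 43346 genes. No measured value entered the rule of choice, although earlier results of these data were known when the genes were chosen.

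Polyadenylated RNA of more than 200 nt, depleted of ribosomal RNA, was sequenced from the whole liver of C57BL/6J embryos 14.5 days old. There is 1 group, of 2 biological replicates, each a stranded paired-end library with reads of 101 bases. The source is labelled as embryo of mixed sex. The labels state neither a treatment, nor an altered allele, nor how many embryos or litters went into a library. Both libraries carry the same donor identifier, so differences between them measure the spread between these samples, which may be technical. Gene counts summed to 102720920 in replicate 1 and 65640933 in replicate 2, and a count of 0 allows up to 0.0292 and 0.0457 CPM.

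The fetal liver is where blood stem cells multiply between leaving the large arteries of the embryo and settling in the bone marrow. These cells are rare, and a small set of transcription factors keeps them dividing without losing their identity. CXCL12, a chemokine made by stromal and other niche cells, holds stem cells in place by signalling through the receptor CXCR4, which couples to inhibitory G proteins and Rac GTPases. In whole-organ RNA, fewer cells of a type and less RNA per cell cannot be told apart, and a level cannot be assigned to a cell.

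The homing signal was the most abundant of the genes. Cxcl12 (chromosome 6, 117168535 to 117181367, mm10) stood at 42.07 TPM in replicate 1 and 39.55 TPM in replicate 2, with 13633 and 9589 estimated counts. TPM, as deposited by the authors, corrects for the length of a transcript and the total of a library. Only 6.96% of the 22208 genes with a count were higher than Cxcl12. Its receptor Cxcr4 (chromosome 1, 128588199 to 128592293) was second at 9.06 and 9.04 TPM, from 1528 and 1226 counts. Ligand transcripts exceeded receptor transcripts by 4.64 times in replicate 1 and 4.38 times in replicate 2, a log2 ratio of 2.17 ± 0.06 (SD, n = 2).

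Surface proteins of stem and progenitor cells were spread over a wide range. Cd34 (chromosome 1, 194938819 to 194961279), a sialomucin of progenitors and of endothelium, had 7.43 and 5.71 TPM from 2161 and 1254 counts. Flt3 (chromosome 5, 147330741 to 147400489), the receptor tyrosine kinase of multipotent and lymphoid progenitors, had 0.84 and 0.64 TPM from 378 and 220 counts. Procr (chromosome 2, 155751117 to 155755471), the endothelial protein C receptor that also marks stem cells, had 0.87 and 0.55 TPM from 111 and 71 counts. Cd34 was thus several times above Flt3 and Procr in each library, and the ranges of Flt3 and Procr overlapped.

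Among the transcription factors Meis1 led. Meis1 (chromosome 11, 18879817 to 19018985), a homeodomain partner of HOX and PBX proteins, had 5.85 and 4.71 TPM. Runx1 (chromosome 16, 92601466 to 92826149), needed for blood stem cells to form from endothelium, had 2.91 and 2.68 TPM. Hlf (chromosome 11, 90336536 to 90390895), a basic leucine zipper factor of stem cells, had 2.59 and 2.43 TPM. These 3 did not overlap with each other, although the intervals deposited with Hlf reached up to 3.49 and 5.23 TPM.

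Gata2 and Mecom were lower. Gata2 (chromosome 6, 88193891 to 88207032), a zinc finger factor of stem cells and mast cells, had 1.89 and 1.83 TPM from 718 and 526 counts. Mecom (chromosome 3, 29951296 to 30548008), whose products MDS1-EVI1 and EVI1 maintain stem cells, had 0.71 and 0.58 TPM from 313 and 163 counts. It was the lowest of the 10 genes by the mean and in replicate 1, while Procr was lower in replicate 2. A level of 1 TPM was reached in both libraries by 7 of the 10 genes and by 11209 genes in all, while Flt3, Procr and Mecom stayed below it in both.

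In the order of mean levels, the 2 libraries of Cd34 and Meis1 overlapped, as did those of Flt3 and Procr and those of Procr and Mecom. All other neighbours in the order were apart. The mm9 gene table, which gives RPKM of 2 replicates without saying which library is which, put the genes in the same order except that Mecom was above Procr (0.211 ± 0.025 against 0.179 ± 0.021 RPKM, SD, n = 2).

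**Figure D1:**
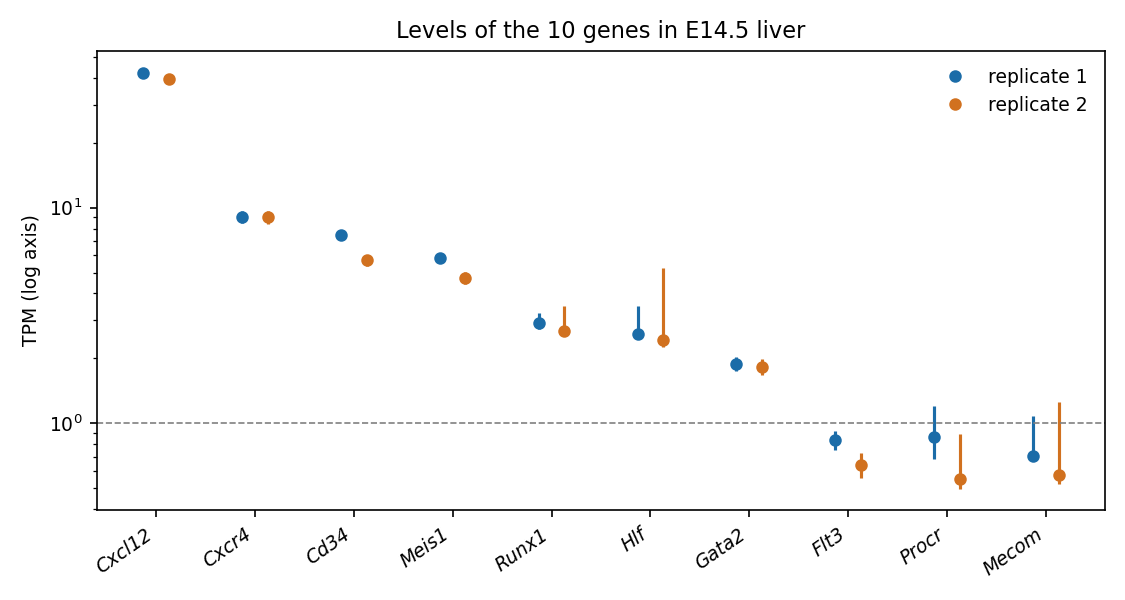
TPM of each gene (log axis) in replicate 1 and replicate 2, with vertical lines for the interval deposited with each value, whose level is not stated. Cxcl12 lies near 40 TPM, Flt3, Procr and Mecom lie below the dashed line at 1 TPM, and 1 of the 20 intervals, that of Mecom in replicate 1, does not hold its value.

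None of the 10 genes was called between the libraries (adjusted p under 0.05 and at least a 2-fold difference) by a binomial test of the rounded counts, two-sided and exact given each gene's total, with Benjamini-Hochberg adjustment over 17906 genes. Among all genes tested, 8.02% were called, so a count of 0 in 10 does not set these genes apart. Without a minimum fold, 5 of the 10 passed, a share near the 60.2% of all genes tested. These p-values cover the counting error of the 2 libraries and not the variation between embryos. The unadjusted p was under 0.05 for 6 of the 10, and an exact test in edgeR with the spread of housekeeping genes passed 0, at adjusted p-values between 0.861 and 1.

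By this test replicate 2 was higher for Cxcr4, by 0.33 on the log2 scale (adjusted p = 1.03e-08, exact binomial test). Runx1 was higher by 0.25, Gata2 by 0.20 and Cxcl12 by 0.14, with adjusted p-values of 2.15e-05, 0.0306 and 1.24e-12 (exact binomial test). Cd34 was lower by 0.14 (log2 change -0.14, adjusted p = 0.0146, exact binomial test). Mecom, with a log2 change of -0.29 and 95% limits of -0.57 and -0.02, missed the threshold at an adjusted p of 0.0625 in the same exact test.

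The direction rests on the scale. By TPM all 10 genes were lower in replicate 2, with a median log2 ratio of -0.21, and the median of the 11209 genes at 1 TPM or more was -0.23. By counts at TMM library sizes, 4 of the 10 were lower and their median was 0.03, against -0.00 for all genes tested. With library sizes from the spike-ins, which held 2.84% of counts in replicate 1 and 1.82% in replicate 2, the median of all genes moved to 0.65 and that of the 10 genes to 0.68. All differences are therefore read beside the median of all genes on the same scale.

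Runx1 is transcribed from a distal promoter and a proximal promoter, whose first coding bases differ. The RefSeq promoter windows of both (GRCm38.p6, 250 bases before to 50 after the start, minus strand) are shown because the reads of Runx1 divide between them. Capitals mark matches to 5 motifs searched on both strands: the RUNX word TGTGGT, the GATA words AGATAA and TGATAA, the MEIS word TGACAG, and the general promoter words CCAAT and TATAAA.

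Runx1 distal promoter, chr16:92826025-92826324: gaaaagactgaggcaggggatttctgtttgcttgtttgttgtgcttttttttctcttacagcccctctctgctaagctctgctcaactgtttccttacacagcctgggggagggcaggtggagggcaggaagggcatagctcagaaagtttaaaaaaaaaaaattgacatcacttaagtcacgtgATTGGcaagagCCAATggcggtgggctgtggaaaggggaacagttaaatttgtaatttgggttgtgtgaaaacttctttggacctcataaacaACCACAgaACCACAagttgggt

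Runx1 proximal promoter, chr16:92697280-92697579: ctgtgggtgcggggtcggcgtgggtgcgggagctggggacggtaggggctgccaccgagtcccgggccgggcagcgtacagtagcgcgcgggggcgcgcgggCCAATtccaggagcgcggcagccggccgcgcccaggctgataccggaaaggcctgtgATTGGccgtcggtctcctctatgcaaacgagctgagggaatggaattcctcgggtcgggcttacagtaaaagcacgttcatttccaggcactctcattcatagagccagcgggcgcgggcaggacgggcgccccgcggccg

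The distal window had a GC content of 45.0% and 2 CpG dinucleotides, and the proximal window 69.0% and 35. The median GC content of all 32851 windows was 52.7%. The distal window held 2 RUNX words, 28 and 36 bases after the start, and both windows held a pair of CCAAT words. A RUNX word is in 16.8% of all windows and a CCAAT word in 37.4%, and a match is a description of letters only.

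The coding sequence opens differently in each form, as the GENCODE M21 transcripts show. Capitals mark the bases before the exon that both forms share, on the minus strand of GRCm38.

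Runx1 distal form, chr16:92695720-92825646, intron removed: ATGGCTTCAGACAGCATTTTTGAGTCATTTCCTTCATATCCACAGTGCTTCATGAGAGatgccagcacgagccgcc

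Runx1 proximal form, chr16:92695720-92695753: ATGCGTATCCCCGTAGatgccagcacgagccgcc

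Most Runx1 abundance was assigned to transcripts that begin at the distal promoter. The distal start held 58.8% of Runx1 TPM in replicate 1 and 60.1% in replicate 2 (59.4 ± 0.928%, SD, n = 2). The proximal start, 128821 nt downstream, held 15.8% and 20.9%. Another start just 3' of it (ENSMUST00000168195 and ENSMUST00000187242) held 25.4% and 19.0%. Of these, ENSMUST00000168195, with 21.6% and 19.0%, begins within the first exon of the proximal form and shares its first intron. The 15.8% and 20.9% thus leave out a transcript that differs from the proximal form in where that exon begins and in a later exon. By estimated counts, which favour long transcripts, the distal share was 73.6% and 71.2%.

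The mm9 estimates of the distal share lay far apart, at 99.8% in one replicate (RPKM1) and 35.6% in the other (RPKM2). Junction reads of the mm9 set need no assignment to transcript models. The junction from the second distal exon to the shared exon had 35 reads in mm9 replicate R1 and 19 in R2, against 68 and 46 at the next junction, which all forms share. These are 51.5% and 41.3% (46.4 ± 7.19%, SD, n = 2). The junction between the first 2 distal exons had 29 and 14 reads, or 42.6% and 30.4% of the same shared junction (36.5 ± 8.64%, SD, n = 2). Of these 4 values, the junction of the second distal exon in R1 alone was over 50%. From the same distal donor site, the highest unannotated junction had 9 reads, all in R1. A pair of unannotated junctions joined the donor to later exons with 5 reads each, for 1 of them all in R1.

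Further 3' in Runx1, a cassette exon of 192 nt was included in 60.9% of reads in R1 and 53.8% in R2 (57.3 ± 5.08%, SD, n = 2). The counts were 82 reads for inclusion, as the mean of its 2 junctions, and 62 for skipping. Unannotated junctions of Runx1 numbered 59 with 133 reads, none above 9 reads, while its 8 annotated introns had 694 reads, and all 8 were seen.

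**Figure D2:**
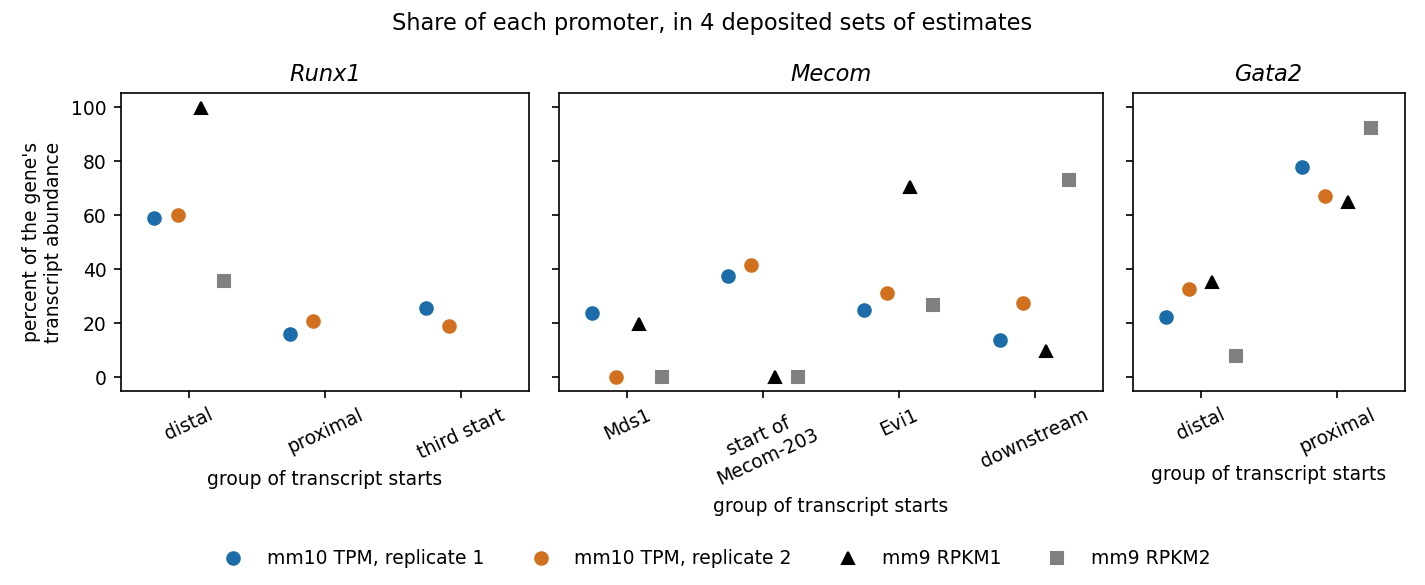
Percent of each gene's transcript abundance by group of transcript starts, for the mm10 TPM of both libraries and the mm9 RPKM of both replicates. The distal Runx1 start is near 60% in both mm10 tables but at 99.8% and 35.6% in the mm9 tables, and the mm9 models do not separate the other Runx1 starts, so no mm9 point is drawn there.

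Mecom joins a distal promoter, where MDS1-EVI1 begins with its PR domain, to a proximal one, 496317 nt downstream, where EVI1 begins. Both windows are shown, since reads were assigned to both starts. Capitals mark the same motifs as above, on the minus strand.

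Mecom distal promoter, chr3:30509710-30510009: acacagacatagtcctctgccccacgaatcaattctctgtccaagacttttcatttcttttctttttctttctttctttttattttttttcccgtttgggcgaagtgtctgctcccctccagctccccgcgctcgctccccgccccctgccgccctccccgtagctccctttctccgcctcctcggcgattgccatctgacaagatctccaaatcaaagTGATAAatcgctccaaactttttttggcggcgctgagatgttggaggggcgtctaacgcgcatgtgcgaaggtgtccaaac

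Mecom proximal promoter, chr3:30013155-30013454: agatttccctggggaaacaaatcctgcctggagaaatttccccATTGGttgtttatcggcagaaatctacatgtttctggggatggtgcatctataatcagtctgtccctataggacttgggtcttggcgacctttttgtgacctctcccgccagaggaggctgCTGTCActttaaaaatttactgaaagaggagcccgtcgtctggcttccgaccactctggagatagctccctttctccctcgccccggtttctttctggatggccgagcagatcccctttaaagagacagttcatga

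The distal window, with a GC content of 52.0% and 19 CpG, held a GATA word at -31 from the start. The proximal window, with 49.7% and 9 CpG, held a MEIS word at -86 and a CCAAT word further upstream. GATA and MEIS words are in 18.6% and 19.2% of all windows.

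The MDS1-EVI1 start was given abundance in 1 library alone. It was assigned 0.17 TPM, or 23.6% of Mecom, in replicate 1 and was listed at 0 in replicate 2. The EVI1 start had 0.18 TPM in each library, which is 25% and 31.0%. A start between both promoters (ENSMUST00000108271) was assigned most, with 0.27 and 0.24 TPM or 37.5% and 41.4%. A start downstream of EVI1's (ENSMUST00000166001 and ENSMUST00000174413) had 0.10 and 0.16 TPM, or 13.9% and 27.6%.

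The mm9 RPKM placed Mecom otherwise, with the start of ENSMUST00000108271 at 0 in both replicates. EVI1 held 70.5% in RPKM1 and 26.8% in RPKM2, the downstream start 9.68% and 73.2%, and MDS1-EVI1 19.8% and 0. The leading start thus differed between the mm9 replicates as well as between the builds.

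Junction reads gave another order. Of the 17 reads that enter the first exon shared by MDS1-EVI1 and EVI1, 15 came from the first EVI1 exon and 2 from another start (ENSMUST00000174406). Either MDS1 exon and the start of ENSMUST00000108271 gave 0 reads. With 17 reads, a count of 0 allows a share of up to 17.6%. The junction between the first 2 MDS1 exons had 2 reads, both in R1. No read in the mm9 set thus joined the start of ENSMUST00000108271 to that exon, while the mm10 estimates placed 37.5% and 41.4% of Mecom there.

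Within the EVI1 body, the large exon began at its upstream acceptor, in the long form, in 13 reads and at a downstream one, in the short form, in 3. These are forms whose coding sequences differ by 324 codons. A small exon of 27 nt was included in 3 of 14 reads (21.1 ± 1.57% over R1 and R2, SD, n = 2). A choice of acceptor sites 3 nt apart was split 13 to 14, with the longer exon at 27.3% in R1 and 62.5% in R2. Mecom had 315 reads over 21 of 31 annotated introns, with a highest value of 44, so its shares are loosely set.

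Gata2 has a distal and a proximal first exon, whose GENCODE M21 starts lie 4443 nt apart. Both exons are noncoding, and both forms encode the same protein. By mm10 TPM the distal form held 22.2% in replicate 1 and 32.8% in replicate 2. By junction reads it had 10 of 50 reads in R1 and 0 of 20 in R2, or 14.3% of all 70 (Wilson 95% interval 7.95 to 24.3%). The proximal first exon was in the majority in every set of estimates. The proximal promoter window was the richest in GC of the 13 windows of these genes, at 73.7%, and the distal one had 69.3%. The RefSeq start of the proximal window lies 330 nt from the nearest M21 start.

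Hlf transcripts were divided between the full coding form and shorter models. The main coding model (ENSMUST00000004051) held 43.6% and 36.9% of Hlf TPM, while a noncoding one (ENSMUST00000107881) held 44.0% and 45.5%. Another noncoding model (ENSMUST00000043658), with a first exon of its own, held 10.4% and 12.3%. At the first junction 32 reads came from that exon and 10 from the first exon of the coding model, and the next junction, common to the coding model and ENSMUST00000107881, had 103. The mm9 RPKM placed 84.0% and 85.1% of Hlf on a further model (ENSMUST00000107883). An exon that this model shares with ENSMUST00000043658 had 0 reads at both of its junctions.

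For Meis1 too, the shares of the models and the reads at their junctions went apart. A noncoding model (ENSMUST00000118661) was assigned 64.3% and 68.8% of Meis1 TPM, and the main coding model (ENSMUST00000068264) 24.3% and 13.8%. The junction from the first exon of the noncoding model had 0 reads, where the next junction had 130, which allows up to 2.31%. By mm9 RPKM a model whose last exon runs on unspliced through the tenth intron (ENSMUST00000144988) held 2.84% in RPKM1 and 97.7% in RPKM2. Junctions among the exons after that intron, which this model lacks, had 353 and 334 junction reads, of which 147 and 93 were in R2. The 95-nt exon between them was included in 96.5% of reads in R1 and 93.0% in R2 (94.8 ± 2.49%, SD, n = 2).

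Reads across the tenth Meis1 intron were placed at sites that the annotation does not hold. The annotated mm9 intron, chr11:18784480-18785595, had 0 reads, and an unannotated intron of the same 1116 nt shifted by 4 bases, chr11:18784476-18785591, had 161 reads in R1 and 113 in R2. That was the highest of the 166 unannotated junctions of the 10 genes, whose others had at most 9 reads. Its edges are shown from ENSMUST00000144988, which reads through it, with the intron in capitals (GENCODE M21, GRCm38, minus strand).

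Intron start as annotated, chr11:18885581-18885604: ccaaccgagcagGCAAGTCCCCTC

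Intron start as the reads place it, chr11:18885581-18885604: ccaaccgagcaggcaaGTCCCCTC

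Intron end as annotated, chr11:18884465-18884488: GTACTTTTGTAGtcagccaaggga

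Intron end as the reads place it, chr11:18884465-18884488: GTACTTTTGTAGTCAGccaaggga

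As annotated, the intron opened with GC and closed with AG. As the reads placed it, it opened with GT and closed with AG. The 4 bases gained at the exon end and the 4 lost from the next exon match at 2 positions, so the placements give different spliced sequences. No read was placed at the annotated sites. The reads' own bases were not examined, and a preference of the alignment for GT and AG was not tested.

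Cd34 has a long and a short form that differ in the tail inside the cell, 382 against 325 codons. The last bases of the seventh exon are shown with what follows them, in capitals (plus strand, GRCm38): for the short form its own coding end and stop codon, and for the long form the first 30 bases of its last exon.

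Cd34 short tail, chr1:194959213-194959794, intron removed: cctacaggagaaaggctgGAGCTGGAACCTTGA

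Cd34 long tail, chr1:194959213-194959965, intron removed: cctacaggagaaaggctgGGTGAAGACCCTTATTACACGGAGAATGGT

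The short-tail form was the more abundant. It held 61.6% of Cd34 TPM in replicate 1 and 70.4% in replicate 2, and the long form held 38.0% and 29.6%. Junction reads gave 91 of 157 in R1 and 60 of 83 in R2 for the short tail (65.1 ± 10.1%, SD, n = 2). The mm9 estimates placed 61.7% and 59.2% on the short form. Every source here put the short tail above the long one.

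Flt3 was nearly all one form. The coding transcript held 91.6% and 90.6% of Flt3 TPM. Its introns were covered from end to end, with 23 of 25 annotated introns seen and 9 to 59 reads at each. One unannotated junction, which leaves out exons, had 6 reads, all in R1. Procr was covered by 28, 36 and 8 reads at the 3 introns of its main coding transcript (ENSMUST00000029140), which held 61.4% of Procr TPM in replicate 1 and 80% in replicate 2.

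Cxcr4 has a pair of donor sites at its first exon, 6 nt apart. The start of the coding sequence is shown to 18 bases into the second exon (minus strand, GRCm38), and capitals mark the bases that the longer exon adds.

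Cxcr4 longer exon, chr1:128589884-128592209, intron removed: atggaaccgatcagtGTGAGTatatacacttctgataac

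Cxcr4 shorter exon, chr1:128589884-128592209, intron removed: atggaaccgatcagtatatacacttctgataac

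The longer exon had the majority. It had 57 of 77 junction reads in R1 and 56 of 64 in R2 (80.8 ± 9.53%, SD, n = 2). By TPM the transcript with the longer exon held 71.6% in replicate 1 and 85.5% in replicate 2. The mm9 estimates placed 99.1% and 52.3% on it. The Cxcr4 promoter window was the only one of the 13 windows with a TATAAA word, a pair of overlapping matches at -32 and -30 from the start, and such a word is in 13.6% of all windows.

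**Figure D3:**
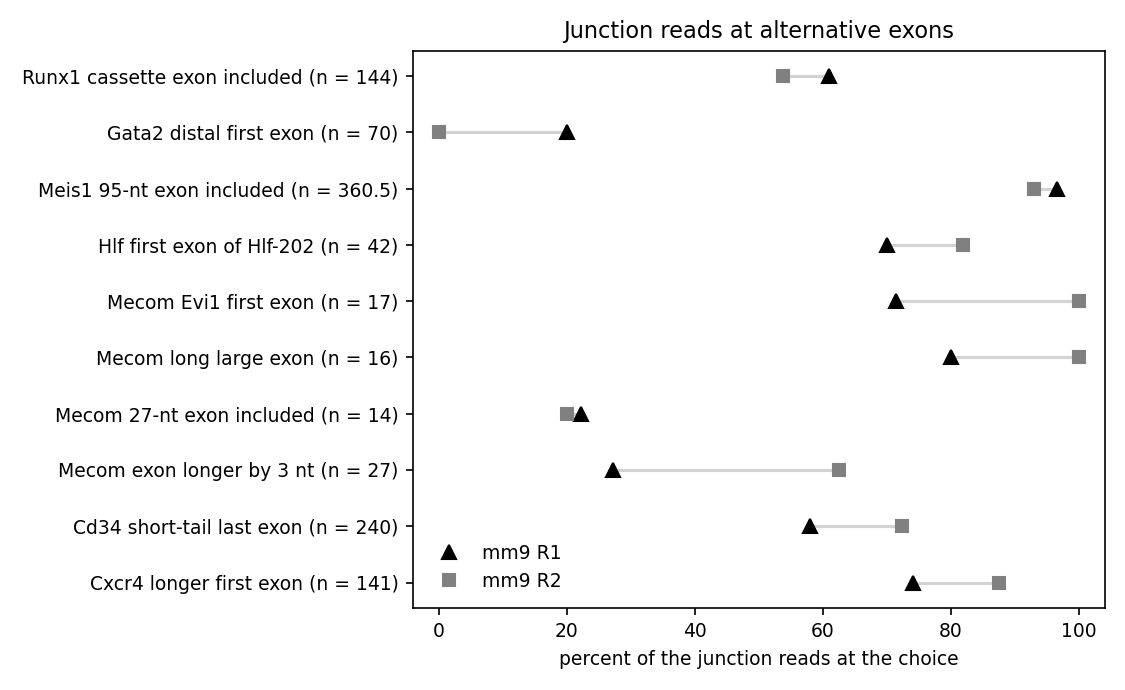
Percent of the junction reads at each choice that took the named form, in mm9 replicates R1 and R2, with the reads at the choice as n (a form with 2 junctions counts by their mean). The Cd34 and Cxcr4 choices stay on one side of 50% in both replicates, while the Mecom exon longer by 3 nt is at 27.3% in R1 and 62.5% in R2.

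Cxcl12 makes 3 protein forms that share all but the last residues. Their ends are shown from the last shared bases to the stop codon, with each form's own bases in capitals (plus strand, GRCm38). The forms hold 89, 93 and 119 codons, and the tail of gamma binds strongly to heparan sulphate.

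Cxcl12 alpha, chr6:117173561-117173582: ggagaaagctttaaacaaGTAA

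Cxcl12 beta, chr6:117173561-117178598, intron removed: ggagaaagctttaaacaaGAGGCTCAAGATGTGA

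Cxcl12 gamma, chr6:117173561-117176179, intron removed: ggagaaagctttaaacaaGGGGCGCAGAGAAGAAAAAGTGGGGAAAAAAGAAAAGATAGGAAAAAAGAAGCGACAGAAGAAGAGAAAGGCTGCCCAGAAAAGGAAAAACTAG

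Alpha and beta were the main forms and gamma a minor one, at a share that differed between sources. By TPM alpha held 40.3% in replicate 1 and 43.5% in replicate 2, beta 41.5% and 37.7%, and gamma 7.18% and 7.76%. A noncoding transcript that keeps an intron (ENSMUST00000134244) held 11% in each library. By TPM the alpha transcript and this one, which end in the same last exon, held 52.9 ± 2.26% together (SD, n = 2). Which end led depended on the measure. By estimated counts beta led, with 47.2% and 43.5%, against 37.7% and 39.6% for the exon of alpha. Among coding transcripts alone, beta was above alpha in replicate 1 (17.46 and 16.95 TPM) and below it in replicate 2 (14.92 and 17.19 TPM).

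Junction reads of Cxcl12 differed between the mm9 replicates. The beta junction had 188 reads in R1 and 319 in R2, while the upstream junction of exons 2 and 3 had 1148 and 335. Beta reads were thus 16.4% of the upstream reads in R1 and 95.2% in R2. The gamma junction had 7 and 3 reads, or 0.610% and 0.896%, below each share that the transcript estimates gave gamma. In R1 beta was far below the upstream junction and in R2 nearly level with it. The mm10 estimates do not show such a spread, and its source was not tested.

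**Figure D4:**
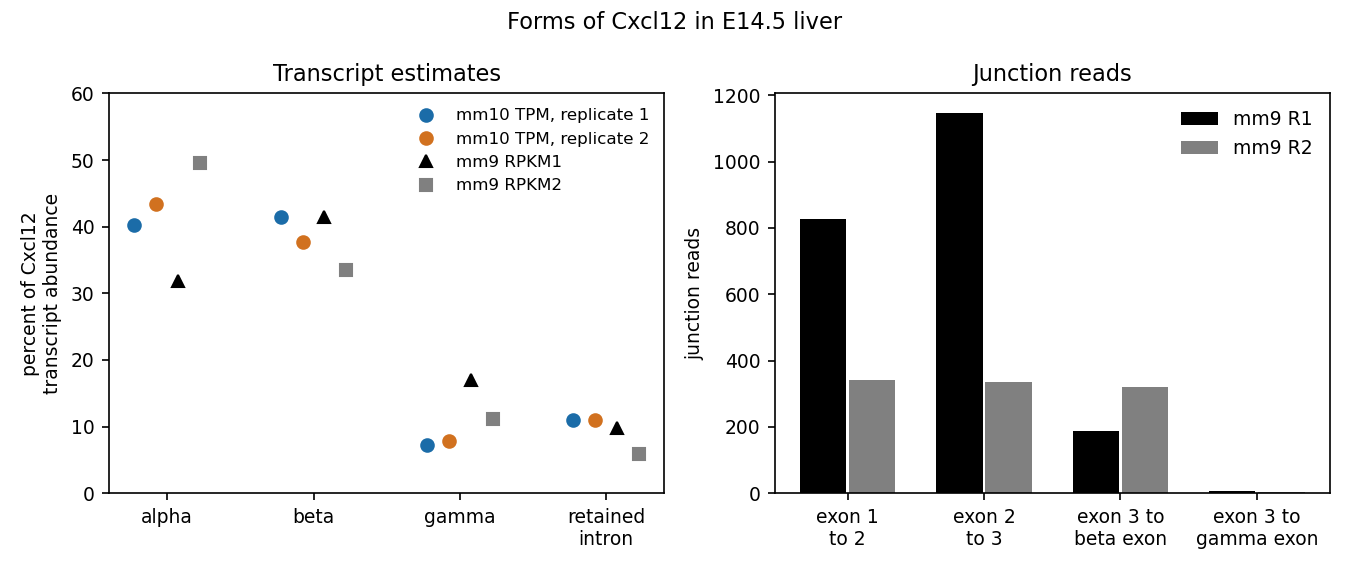
Left, percent of Cxcl12 transcript abundance by form in the mm10 and mm9 tables. Right, reads at the 4 Cxcl12 junctions in mm9 replicates R1 and R2: the junction of exons 2 and 3 had 1148 reads in R1 and 335 in R2, and the beta junction 188 and 319.

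The levels of the mm9 exons add nothing independent to these shares. For 170 of 170 exons of the 10 genes, the exon's RPKM was equal to the sum over its transcripts within 1% plus 0.001 RPKM. In all, 92 of 112 annotated introns had reads, 8759 reads together, of which 64.3% were in R1. Unannotated junctions had 6.13% of the reads, and 107 of the 166 had 1 read. Of their 572 reads, 274 were at the shifted Meis1 intron alone.

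Other regulators of stem cells give the 10 genes their context. Of 24 listed regulators, 17 reached 1 TPM in both libraries and 0 were called by the exact binomial test, beside 8.02% of all genes. Without a minimum fold 12 passed, against 60.2% of all genes. The unadjusted p was under 0.05 for 13, and the edgeR exact test passed 0. The highest were Lmo2, Gfi1b, Tal1 and Lyl1, factors that red cells and platelet precursors also express, at 127, 77.7, 72.6 and 44.6 TPM on average. Their median was 2.76 TPM in replicate 1 and 3 TPM in replicate 2, beside 2.75 and 2.56 TPM for the 10 genes.

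Surface genes of stem cells and progenitors were led by Adgrg1, Itgb1, Itga2b and Hmmr, at 41.7, 34.6, 31.2 and 26.3 TPM on average. Itga2b is the integrin chain of megakaryocytes, and Hmmr is a hyaluronan receptor of dividing cells. Of 24 genes 22 reached 1 TPM. The exact binomial test called 0, beside 8.02% of all genes. Without a minimum fold 16 of the 24 passed it (66.7%), near the 60.2% of all genes, and 16 had an unadjusted p under 0.05. The edgeR exact test passed 0. The stem cell marker Slamf1 had 1.44 and 1.03 TPM, and it was picked out after its values were seen.

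Homing and niche genes numbered 23 measured of 24 listed, and the other, Flt3l, was not analysed here. Of the 23, 16 reached 1 TPM. Of these 23 genes 0 were called by the exact binomial test, beside 8.02% of all genes. Without a minimum fold 14 passed it (60.9%), near the 60.2% of all genes, and 17 had an unadjusted p under 0.05. The edgeR exact test passed 0 here too. Gnai2, the G protein subunit that CXCR4 signals through, Rac1 and Rac2 had 109, 66.9 and 43.8 TPM on average. Ackr3, the other receptor of CXCL12, had 3.18 and 3.68 TPM, below Cxcr4 in both libraries. Dpp4, a protease that inactivates CXCL12, had 2.20 and 1.67 TPM. Ackr3 and Dpp4 were named after their values were seen.

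Markers of other cells that express some of the 10 genes were measured alongside. Of 13 endothelial markers 11 reached 1 TPM, and their sum was 155 TPM in replicate 1 and 150 TPM in replicate 2. All 10 stellate and mesenchymal markers, of cells that make CXCL12, reached 1 TPM, with a sum of 153 and 103 TPM. All 8 megakaryocyte markers did so too, with 411 and 482 TPM in sum. Gp1bb, a subunit of a platelet adhesion receptor, was called as higher in replicate 2, with a log2 count ratio of 1.21. Its levels of 13.56 TPM in replicate 1 and 19.41 TPM in replicate 2 differed by less than 2-fold. It was the 1 megakaryocyte marker called of 8, and 0 of the other 2 lists were, beside 8.02% of all genes. Without a minimum fold 8 of 13 endothelial, 8 of 10 stellate and mesenchymal and 6 of 8 megakaryocyte markers passed, against 60.2% of all genes. The edgeR exact test passed 1 megakaryocyte marker and 0 of the others.

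Mast cell and basophil markers, of cells that also express Gata2, were low. They had 1 of 7 at 1 TPM and a sum of 9.39 and 3.52 TPM. Mcpt8 was called as lower in replicate 2 (4.47 TPM in replicate 1 and 0.80 TPM in replicate 2). It was the 1 gene called of 6 tested in this list, beside 8.02% of all genes. B lymphoid markers reached 1 TPM in 3 of 9 cases, with a sum of 7.42 and 8.66 TPM. Dendritic markers did so in 2 of 6 measured, with 6.19 and 5.38 TPM in sum. Cd209a was called as higher in replicate 2 at 0.04 and 0.11 TPM, from 6 and 13 counts. It was the 1 dendritic gene called of 5 tested, and 0 of the 9 B lymphoid markers were, beside the same 8.02%. Without a minimum fold 4 of 6 mast cell and basophil, 2 of 9 B lymphoid and 2 of 5 dendritic genes passed, against 60.2% of all genes. The edgeR exact test passed 1 gene of the mast cell and basophil list and 0 of the other 2 lists. None of these marker lists held a gene at 0 in both libraries. The part of these cells in the levels of the 10 genes was not tested.

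**Figure D5:**
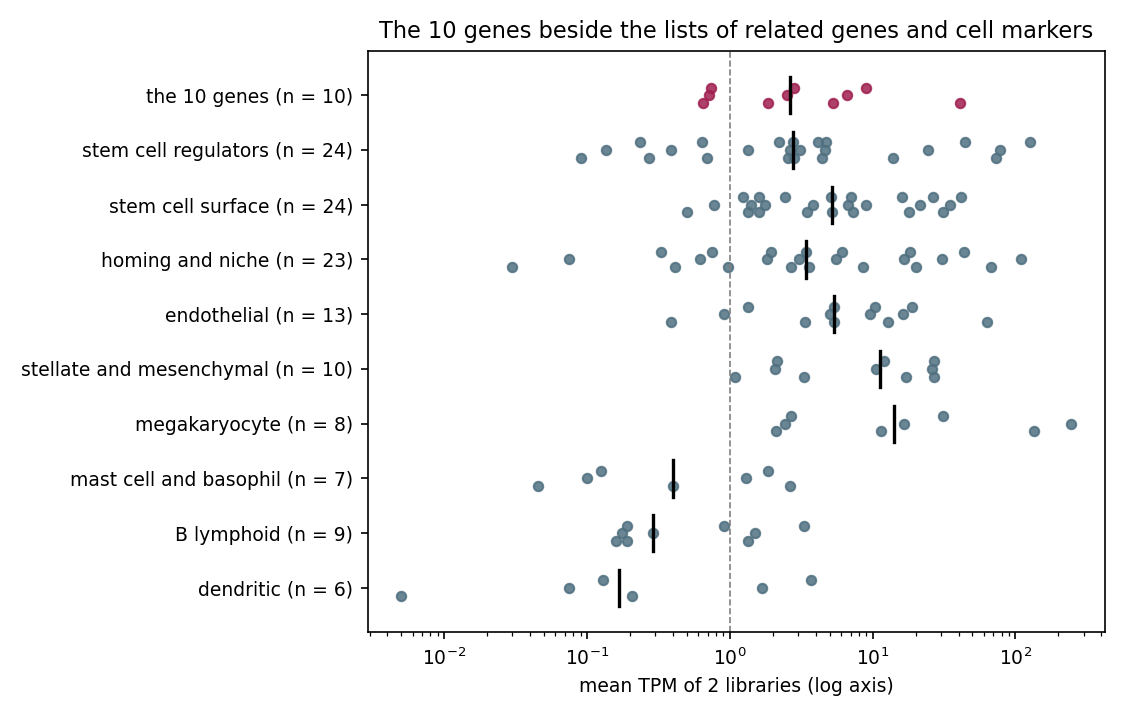
Mean TPM of 2 libraries (log axis) of the 10 genes, of 3 lists of related genes and of 6 lists of cell markers, with 1 point per gene and a bar at the median of each list. The median of the 10 genes lies near those of the stem cell regulators and homing lists, and those of the mast cell, B lymphoid and dendritic lists lie below the dashed line at 1 TPM.

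The labelled tissue was clear from its own markers. All 8 hepatocyte, 8 erythroid and 7 neutrophil markers were above 1 TPM in both libraries. Albumin (Alb), the main plasma protein that hepatocytes secrete, reached 10324 and 8911 TPM. The neutrophil marker S100a8 was called as lower in replicate 2, with a log2 count ratio of -1.28. Its levels of 602 TPM in replicate 1 and 397 TPM in replicate 2 differed by less than 2-fold. It was the 1 neutrophil marker called of 7, and 0 hepatocyte or erythroid markers were, beside 8.02% of all genes. Without a minimum fold 6 of 7 neutrophil, 8 of 8 hepatocyte and 8 of 8 erythroid markers passed, against 60.2% of all genes. The edgeR exact test passed 1 neutrophil marker and 0 of the others. The 8 stem cell genes together made 23.1 TPM in replicate 1 and 19.1 TPM in replicate 2.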

How the data were processed

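The 10 genes and the lists beside them were chosen with earlier results of these data known. Per the file headers and a deposited note, the authors' mm10 tables (annotation M4) give for each library and gene or transcript an expected count, TPM, FPKM and, for transcripts, the percent of the gene's abundance. The deposited mm9 tables (Ensembl 65) give RPKM of 2 replicates, and the deposited junction file gives read counts with an irreproducible discovery rate, a measure that like a p-value is lowest for junctions the replicates share. Which mm9 replicate is which library, and which aligner was run, is not given in the sources used here. Coordinates were never converted between builds.

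GENCODE M21 entries were looked up by unversioned identifier: 58 of the 59 transcripts of the 10 genes were found, 3 with another length. Starts within 1000 nt were grouped, and mm9 introns of at least 30 nt were read from transcript models. Expected counts were rounded, and genes with 10 or more counts in all were tested between libraries with a binomial test, two-sided and exact given the total (TMM sizes from edgeR 4.0.16 in R 4.3.3, 0.5 added for fold changes, Benjamini-Hochberg). With 1 group, a quasi-likelihood fit has no groups to compare. The script was checked on simulated counts. DESeq2 1.42.0 gave other size factors. The other steps ran in Python 3.11.15 with scipy 1.17.1, and matplotlib 3.10.9 drew the plots. All 10 genes are named, and of each list the 4 highest and those called, except 1 gene that is not reported here. Marker lists were summarised, with those called named. Alternatives covered library sizes, minimums, units, mm9 tables, junction reads and single replicates. Reads have no molecular identifiers, so intervals and limits cover counting error only. The authors' de novo models and contigs were not used.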

Additional observations from a re-analysis of the deposited data

How the results depend on the processing

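No gene of the 10 was called under 5 of the 6 alternatives (other library sizes, a minimum of 1 count, the edgeR exact test), and 5 were called without a minimum fold. The median level of 2.65 ± 0.138 TPM became 3.53 as FPKM, 0.741 as mm9 RPKM and 6.04 TPM after globin and mitochondrial genes were left out, and it was between 2.56 and 2.75 with either replicate left out. By mm9 RPKM 4 genes instead of 7 reached 1. The distal Runx1 share of 59.4% became 72.4% by counts, 67.7% by mm9 RPKM, 46.4% by junction reads and 56.9% over protein-coding transcripts. The share of the last exon of Cxcl12 alpha, 52.9%, became 38.6%, 48.5%, 43.4% and 47.1% in the same order. The junction value, by subtraction of beta and gamma reads, is the mean of 83.0% in R1 and 3.88% in R2 (SD 56.0), so either replicate alone moves it by over 1.5 times. The mm9 RPKM value for Runx1 is likewise the mean of 99.8% and 35.6%. The log2 ratio of Cxcl12 to Cxcr4, 2.17, became 2.48 by mm9 RPKM, the mean of 2.86 in RPKM1 and 2.10 in RPKM2 (SD 0.537). The distal Mecom share was 11.8 ± 16.7% (SD, n = 2), a spread larger than the mean that no alternative could readily leave. It was between 0 and 14.2% under the 5 other measures, and 0 or 23.6% in single replicates, so its stability cannot be judged. The cause was not tested. No paired analysis was possible because there is 1 group.

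Depth limits the Mecom, Procr, Hlf and Gata2 shares, which rest on under 100 reads at a choice. With 2 libraries no test over samples can be made, and neither the number of animals nor the identity of the mm9 replicates is known.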
